A study of Bos taurus and Ovis aries and Capra hircus with 9 samples.

Results

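In adult liver, 42 of 7657 genes shared by cattle, sheep, and goats were on in every sheep and goat library and low in every cattle library. The members were chosen by measured levels of the same libraries. A shared gene was a member when its normalised read count was at least 5 in all 6 sheep and goat libraries and the lowest of these 6 values was at least 8 times the highest of the 3 cattle values. Normalised read counts are counts per 1000000 (CPM) of the shared-gene total after TMM scaling, a method that sets the libraries to a common level on genes of moderate change. Genes with more than 50% of their exon length under the exons of another gene in any species were left out, as was the cattle interval on chromosome 23 between 25 and 29 Mb. The members made up 0.549% of the genes tested, and since the rule used cattle against sheep and goats, that contrast is described here without a test.

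The livers came postmortem from healthy adult animals, namely 3 Yunnan black goats, 3 Texel sheep, and 3 cattle of the Holstein breed. Each animal gave 1 poly(A) RNA library, named A, B, or C within its species. The p-values below therefore set the difference between sheep and goats against the spread between libraries of a species, estimated from all 9 libraries. With 1 library for each animal, the spread of animals and that of library preparation cannot be told apart. All 3 species are ruminants of the family Bovidae. Sheep and goats belong to the Caprinae, whereas cattle belong to another branch of the family. The cattle were 3 to 4 years old, and the sheep and goats 2 to 3 years. Each species was represented by 1 breed and was counted on its own gene models, so that species, breed, and annotation cannot be told apart in these data, and age runs with the cattle contrast.

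The liver makes most proteins of blood plasma, forms bile acids, and clears ammonia and foreign compounds. In ruminants it also makes most of the glucose the animal uses, largely from propionate that microbes release in the rumen. Hepatocytes carry out most of this work and give most of the RNA of the tissue, beside endothelial, Kupffer, stellate, and bile duct cells. In bulk tissue, fewer cells of a type and less RNA per cell cannot be told apart. The gene identifiers were not paired with gene names here, since 0 of them matched the name table used, so the known roles of the members are not given and the tissue was not checked against marker genes. The members are called genes 1 to 42 in the order of their mean CPM over the 6 sheep and goat libraries, and each described member is placed on the cattle genome (build ARS-UCD1.2).

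The 9 libraries held 16507706 (goat C) to 61105490 (cattle C) counts on genes, and 3 counts corresponded to a CPM of 0.0943 to 0.275. This floor covers counting error only, since PCR copies are not independent molecules. Over the genes tested, Spearman's rho between animals of a species ran from 0.972 to 0.984 for cattle, from 0.944 to 0.978 for sheep, and from 0.895 to 0.952 for goats. Goat C stood apart with the fewest counts and the largest TMM factor, 1.51. Without it the rule gave 49 genes, which included all 42 members.

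The members together had a far larger share of the shared-gene counts in sheep and goats than in cattle, as the rule requires. Their summed CPM was 307, 288, and 240 in cattle A, B, and C. It was 7144, 9375, and 6055 in sheep and 6865, 8794, and 6220 in goats. Genes 1 and 2 held 73.8% to 78.1% of it in cattle, 52.8% to 63.5% in sheep, and 43.4% (goat C) to 57.2% in goats. Without genes 1 and 2, the remaining members summed to 62.8 to 67.3 CPM in cattle and to 2857 to 4053 in sheep and goats. The median member had a mean CPM of 52.1 in sheep, 31.1 in goats, and 0.666 in cattle, where the medians over all genes tested were 27.5, 28.0, and 28.6. Members were found from percentile 24.0 to 99.5 of all genes tested in sheep and from 22.4 to 99.4 in goats. In cattle the median member was at percentile 5.83, and the highest, gene 1, at 85.8.

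**Figure D1:**
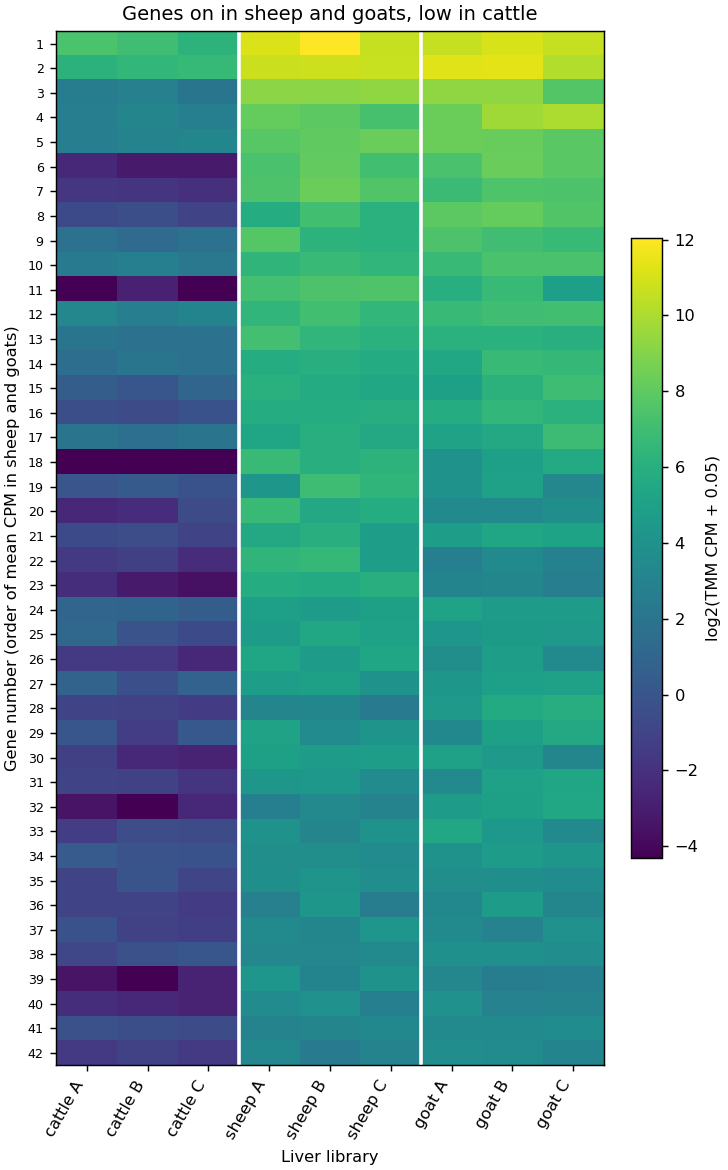
Level of each of the 42 members (vertical axis, gene number) in each of the 9 liver libraries (horizontal axis), with colour for log2(TMM CPM + 0.05). The 3 cattle columns are dark for most genes, apart from genes 1 and 2, and the 6 sheep and goat columns are brighter in all 42 rows, as the rule requires.

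The ratio of the mean over sheep and goats to the mean over cattle had a median of 42.5 over the members, with a lowest value of 14.1 in gene 12. The highest ratios rested on few cattle counts and cannot be ranked. Gene 11 had a ratio of 3709 on 3 cattle counts in all (95% Poisson interval of the cattle counts, 1269 to 17984), and gene 6 had 2541 on 7 (1233 to 6320). In 24 of the 42 members, the cattle CPM was under 1 in all 3 libraries, against 6.27% of all genes tested. The rule asks for low cattle values, so this excess is not a separate result. In 4 members, genes 6, 11, 18, and 39, every cattle library had at most 3 counts. By contrast, 5 members (genes 1, 2, 4, 5, and 12) had a cattle CPM of at least 5 in all 3 libraries. The set thus holds genes that were close to undetected in cattle and genes that were plainly detected there at a lower level. Reads counted on a gene also rise with the length of its annotated exons. CPM is therefore used below for a gene across libraries, and the order of genes by CPM is an order of reads, not of transcripts.

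Gene 1 (ENSBTAG00000011027, chromosome 8, 100963670 to 100994111, minus strand) had the largest mean CPM over the 6 sheep and goat libraries. Its CPM was 167, 131, and 75.7 in cattle A, B, and C. In sheep it was 2275, 4211, and 1558, and in goats 1552, 2132, and 1534. Among all genes tested, it was at position 36 by mean CPM in sheep and 62 in goats, but at position 1089 in cattle. Per kb of exon, its mean level was 2127 CPM in sheep, 850 in goats, and 98.7 in cattle. All 8 internal exons of the cattle and sheep models were matched in each species pair, while the goat model had 11 exons in all against 10 in the others.

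Gene 2 (chromosome 1, 80560914 to 80576233, minus strand) had a higher CPM than gene 1 in goats A and B, in sheep C, and in cattle C. It had 72.4, 92.1, and 101 CPM in cattle, 1719, 1739, and 1640 in sheep, and 2375, 2609, and 1164 in goats. The 3 sheep were nearly equal (1699 ± 52.1, SD, n = 3), while goat C was lower than the other 2 goats (2049 ± 775, SD, n = 3). Per kb of exon, its mean level was 61.2 CPM in cattle, 1321 in sheep, and 690 in goats. Genes 1 and 2 had 1732 to 4154 counts in each cattle library, far above the floor of 3. When CPM was divided by exon length relative to the median of each species, neither was a member any more. Their annotated exons were longest in goats, with 2046 nt for gene 1 and 2970 nt for gene 2, against 1260 and 1447 nt in cattle.

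Genes 3, 4, and 5 had a CPM of at least 156 in every sheep and goat library and under 10 in every cattle library. Gene 3 (chromosome 26, 42805983 to 42855916) had 5.77, 6.85, and 4.02 CPM in cattle. In sheep it had 595, 598, and 642, and in goats 636, 636, and 199, so that goat C alone was lower. Its exons were 1387 nt long in sheep and 4930 nt in goats, and gene 3 passed the test between sheep and goats only with exon length as an offset in the fit (log2 fold change of sheep over goats 1.95, edgeR adjusted p = 0.00667, against 0.32 and 0.607 without it). Gene 4 (chromosome 5, 26867427 to 26877858) had 6.36, 8.77, and 6.53 in cattle, 292, 242, and 156 in sheep, and 336, 842, and 1048 in goats. Gene 5 (chromosome 7, 38024335 to 38070254), a gene of 32 exons in cattle, had 6.44, 7.82, and 8.98 in cattle, 224, 265, and 316 in sheep, and 329, 298, and 235 in goats. Gene 5 was the most even of these, with 268 ± 46.0 CPM in sheep and 287 ± 47.5 in goats (SD, n = 3), and its annotated exons were of similar length in the 3 species (5294, 4328, and 4188 nt).

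Genes 6, 7, and 8 had at most 23 counts in any cattle library. Gene 6 (chromosome 18, 43631532 to 43646500) had 3, 2, and 2 counts in cattle A, B, and C. Its CPM was 163, 274, and 135 in sheep and 163, 322, and 227 in goats. The mean over sheep and goats was 2541 times that of cattle, with the interval given above. Gene 7 (chromosome 21, 67610926 to 67621574) had 6, 7, and 6 counts in cattle, with 174, 333, and 190 CPM in sheep and 114, 183, and 179 in goats. Gene 8 (chromosome 26, 34061695 to 34145490), a gene of 43 exons, had 14, 23, and 14 counts in cattle, with 56.0, 135, and 68.8 CPM in sheep and 242, 294, and 198 in goats. For gene 8 the goat libraries all lay above the sheep libraries, whereas for genes 6 and 7 the libraries of sheep and goats overlapped.

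Genes 9, 10, and 12 were expressed at a low level in cattle. Gene 9 (chromosome 15, 80673388 to 80692495) had 3.55, 2.64, and 3.44 CPM in cattle and 208, 74.9, and 70.4 in sheep, with sheep A above the others. Its goat values were 178, 128, and 105. Gene 10 (chromosome 7, 19600448 to 19611770) had 5.65, 6.50, and 4.64 in cattle, 84.6, 111, and 85.4 in sheep, and 102, 165, and 165 in goats. Gene 12 (chromosome 17, 72935432 to 72967481) had 9.53, 6.32, and 8.37 in cattle, 86.7, 133, and 92.0 in sheep, and 107, 131, and 133 in goats. Gene 12 had the smallest ratio of all members, and its model held 5163 nt of exons in goats, 2043 nt in cattle, and 971 nt in sheep. Per kb of exon its mean level was 3.95 CPM in cattle, 107 in sheep, and 24.0 in goats, so that the ratio to cattle was far smaller in goats than in sheep on this scale.

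Genes 11 and 18 were the members nearest to none in cattle. Gene 11 (ENSBTAG00000001026, chromosome 18, 7897717 to 7928436) had 0, 3, and 0 counts in cattle. Its CPM was 142, 176, and 183 in sheep and 61.6, 107, and 30.5 in goats. Gene 18 (chromosome 22, 11975410 to 12063392) was the only member with 0 counts in all 3 cattle libraries, as were 0.496% of all genes tested. It had 102, 62.9, and 78.1 CPM in sheep and 16.1, 30.4, and 52.2 in goats. Against 3 counts in a cattle library, which is a CPM of at most 0.125, the mean of gene 18 over sheep and goats was at least 454-fold higher. Its cattle model had 8565 nt of exons, longer than the 6161 and 6063 nt in sheep and goats, and 23 internal exons matched those of each of the other species.

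Some members lay close to the thresholds. The lowest values over the 6 sheep and goat libraries were 5.49 CPM in gene 42, 5.51 in gene 28, and 5.77 in gene 39, and the nearest genes outside had 4.45, 4.28, and 4.10 CPM. On the ratio of this lowest value to the highest cattle value, the nearest members were gene 19 at 8.06, gene 17 at 8.74, and gene 25 at 8.91. The nearest genes outside were at 7.83, 7.68, and 7.55. The number of members followed the ratio closely, with 108 genes at a ratio of 4 and 20 at a ratio of 16. No gap in the values set the members apart from the genes next to them.

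Genes 17, 25, 39, and 42 were among the members at the thresholds. Gene 17 (chromosome 2, 125921162 to 125934238) had 3.93, 3.11, and 3.93 CPM in cattle, 40.4, 60.4, and 47.3 in sheep, and 34.4, 47.3, and 120 in goats, with goat C above the others. Gene 25 (chromosome 16, 51526682 to 51544095) had 2.17, 0.848, and 0.579 in cattle, 24.9, 44.7, and 32.7 in sheep, and 19.4, 24.0, and 21.8 in goats, so that its place near the ratio of 8 came from cattle A. Gene 39 (chromosome 8, 29303339 to 29452913) had 1, 0, and 3 counts in cattle and 19.5, 8.25, and 16.2 CPM in sheep, with 9.40, 5.77, and 6.63 in goats. Gene 42 (chromosome 21, 24144715 to 24509041) had 7, 13, and 9 counts in cattle and 10.1, 5.49, and 8.10 CPM in sheep, with 12.8, 12.1, and 8.20 in goats. Genes 39 and 42 thus had at most 19.5 and 12.8 CPM in any sheep or goat library, and genes 17 and 25 were detected in cattle at a low level.

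**Figure D2:**
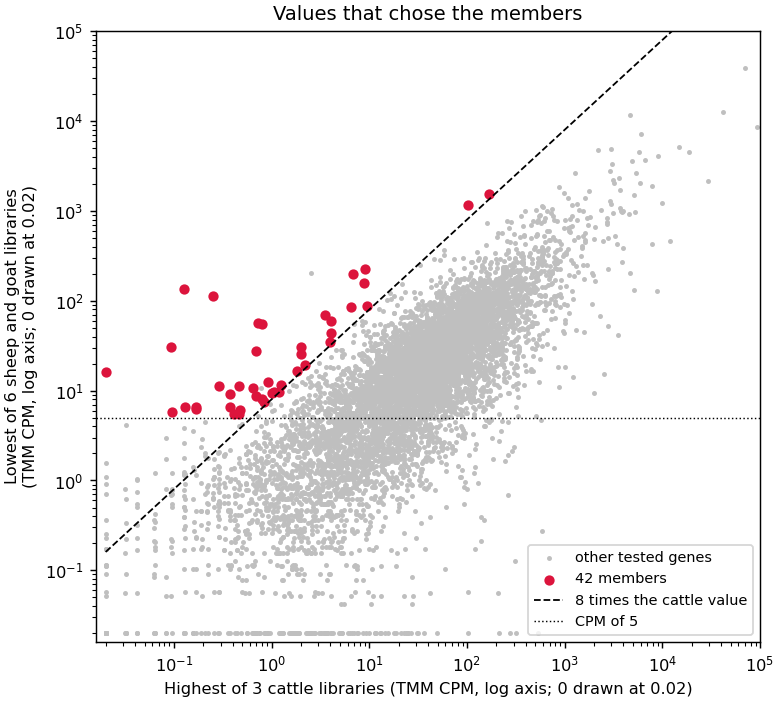
Highest cattle value (horizontal axis) against the lowest sheep or goat value (vertical axis) for the genes tested, both as TMM CPM on log axes with 0 drawn at 0.02, and the 42 members in red. The dashed line marks a ratio of 8 and the dotted line a CPM of 5; grey points beyond both lines were left out for exon overlap or position.

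Sheep against goats was the contrast that the rule did not use, apart from the CPM of at least 5 in both. Of the 42 members, 10 differed between sheep and goats (edgeR quasi-likelihood test, Benjamini-Hochberg adjusted p under 0.05 over 7657 genes), where the background was 25.2% of all genes tested. Among the 5440 genes with a CPM of at least 5 in all 6 of these libraries, the background was 21.8%. The share of members, 23.8%, was close to both. Of these 10 genes, 6 were higher in sheep (11.3% of all genes tested) and 4 were higher in goats (13.9%). The libraries of the 2 species did not overlap in 14 members, 33.3%, where the background was 37% of all genes tested and 34.2% of the 5440. The other 32 members did not pass the test, which does not show that their levels were equal. Their log2 fold changes were at most 1.02 in either direction.

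**Figure D3:**
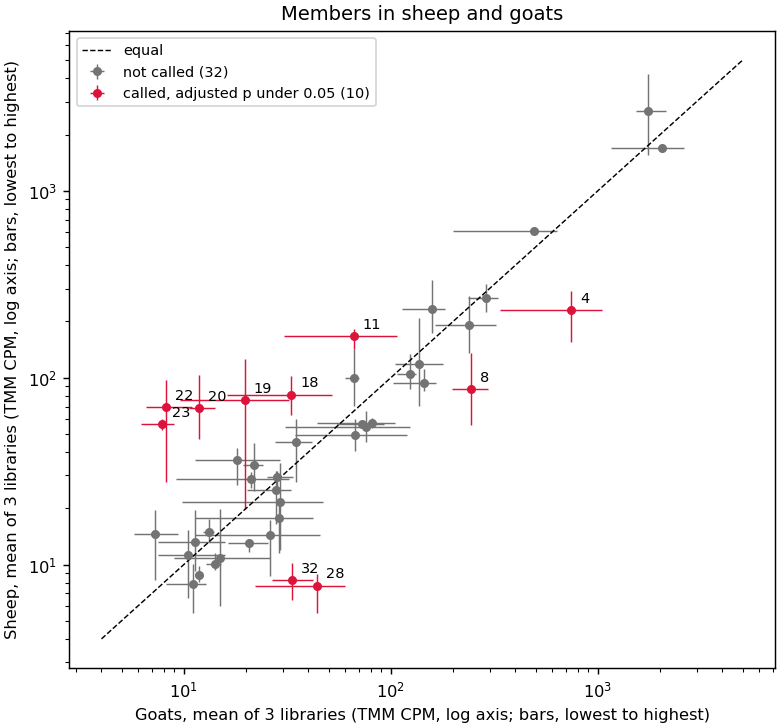
Mean TMM CPM of the 42 members in goats (horizontal axis) and sheep (vertical axis), both on log axes, with bars from the lowest to the highest of 3 libraries and a dashed line of equal levels. The 10 members that passed the test are red and carry their gene number, with genes 11, 18, 19, 20, 22, and 23 above the line and genes 4, 8, 28, and 32 below it.

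Genes 22, 23, and 20 had the largest differences in favour of sheep. Gene 22 (ENSBTAG00000047604, chromosome 19, 42627994 to 42630487) had 83.9, 96.6, and 27.6 CPM in sheep, 6.55, 10.9, and 7.10 in goats, and 7, 12, and 5 counts in cattle. All sheep libraries lay above the goat libraries, and the log2 fold change of sheep over goats was 3.09 with an approximate standard error (SE) of 0.46 (edgeR adjusted p = 0.000767). Gene 23 (ENSBTAG00000011392, chromosome 5, 65398362 to 65500279) was even within each species, with 56.5, 52.2, and 60.1 CPM in sheep and 8.44, 8.98, and 6.23 in goats. Its log2 fold change was 2.83 (SE 0.32, edgeR adjusted p = 0.000137), and cattle had 4, 2, and 1 counts. Gene 20 (chromosome 28, 9910803 to 10517659), a gene of 115 exons in cattle and the longest member, had 104, 47.2, and 55.1 CPM in sheep and 10.6, 10.7, and 14.1 in goats. Its log2 fold change was 2.54 (SE 0.45, edgeR adjusted p = 0.00227), with 3, 5, and 20 counts in cattle. In these 3 genes the level thus fell from sheep to goats and again from goats to cattle, with no overlap between species, where the last step is part of the rule.

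The other 3 genes with higher levels in sheep were nearer to the threshold of the test. Gene 19 (chromosome 5, 95172751 to 95238347) had 19.9, 125, and 82.7 CPM in sheep and 17.2, 32.2, and 9.62 in goats, so that sheep A lay within the goat range. Its log2 fold change was 1.95 (SE 0.58, edgeR adjusted p = 0.0285). For genes 11 and 18, with the values given above, all sheep libraries lay above the goat libraries, and the log2 fold changes were 1.33 (SE 0.44, edgeR adjusted p = 0.0445) and 1.30 (SE 0.41, edgeR adjusted p = 0.0417). Genes 11, 18, and 19 did not pass in every fit with 1 library left out. Gene 11 passed in 4 of 9 such fits, gene 18 in 6, and gene 19 in 5, with adjusted p up to 0.113, 0.128, and 0.104. With the offset of exon length, genes 11 and 18 did not pass either (edgeR adjusted p = 0.0606 and 0.0836), while gene 19 did (0.0344).

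Genes 28, 32, 4, and 8 were higher in goats. Gene 28 (ENSBTAG00000000540, chromosome 19, 34063776 to 34069380) had 22.1, 50.2, and 59.8 CPM in goats and 8.67, 8.93, and 5.51 in sheep, with 11, 13, and 10 counts in cattle. Its log2 fold change of sheep over goats was -2.51 (SE 0.39, edgeR adjusted p = 0.0010). Gene 32 (ENSBTAG00000014382, chromosome 3, 83258392 to 83334028) had 26.8, 31.1, and 42 CPM in goats and 6.50, 10.2, and 8.10 in sheep. Its log2 fold change was -2.01 (SE 0.41, edgeR adjusted p = 0.00452), and cattle had 1, 0, and 4 counts. All goat libraries of both genes lay above all sheep libraries, and both genes passed in each of the 9 fits with 1 library left out.

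From the values above, gene 8 had 244 ± 48.1 CPM in goats and 86.8 ± 42.6 in sheep (SD, n = 3), a log2 fold change of -1.49 (SE 0.34, edgeR adjusted p = 0.00773). Gene 4 had 742 ± 366 CPM in goats and 230 ± 68.9 in sheep (SD, n = 3), a log2 fold change of -1.69 (SE 0.41, edgeR adjusted p = 0.0117). The annotated exons of gene 4 were 5034 nt long in goats and 1575 nt in sheep, and per kb of exon its mean level was 147 CPM in goats and 146 in sheep. With exon length as an offset in the fit, its log2 fold change was -0.22 (edgeR adjusted p = 0.736). Gene 8 had nearly equal exon lengths, 5515 and 5154 nt, and kept its difference with the offset (log2 fold change -1.59, edgeR adjusted p = 0.00697). Genes 8, 20, 22, 23, 28, and 32 passed the test in all 15 alternative fits.

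A further 15 members (genes 13, 16, 21, 24, 26, 27, 29, 30, 31, 33, 36, 37, 38, 40, and 41) are given by their ranges. Their mean CPM was 0.130 to 3.68 in cattle, with medians over these genes of 0.576 there, 21.5 in sheep, and 26.0 in goats. The ratio of sheep and goats to cattle ran from 14.3 in gene 41 to 125 in gene 30. None of the 15 passed the test between sheep and goats (edgeR adjusted p 0.0772 to 0.908), and gene 26 alone had an unadjusted p under 0.05. Genes 13, 38, and 41 had sheep and goat libraries that did not overlap without passing the test.

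The spread between animals of a species was not unusual in sheep and goats. The coefficient of variation (SD over mean) of the members had a median of 27.0% in sheep and 26.7% in goats, against 24.3% and 31.9% over all genes tested. In cattle the median was 25.7% over the 41 members with counts, against 15.6%, with few counts behind many of the cattle values. The 6 sheep and goat libraries differed by more than 4-fold in 14 members, 33.3%, the same share as over all genes tested.

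Each member had to be matched across species by the lengths of its internal exons, so the gene models themselves are part of the result. Matched internal exons numbered 4 to 96 between cattle and sheep (median 9.5) and 4 to 100 between cattle and goats (median 9). They made up a median of 92.9% and 93.2% of the internal exons of the gene with fewer, and all of them in 16 and 19 members. The lowest share between cattle and another species was 60%, in gene 7 with goats and in gene 35 with sheep. For gene 35 (chromosome 19, 62541011 to 62600652), the cattle model had 11 exons and 1412 nt against 27 exons and 3052 nt in sheep and 25 exons and 3317 nt in goats. Its cattle CPM of 0.46 to 0.911 was thus counted on a model less than 50% as long as in the other species. Relative to the median exon length of each species, the lowest sheep or goat value of gene 35 was 4.85 times the highest cattle value, under the ratio of 8.

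Short cattle models were more frequent among the members than among all genes tested. The annotated exon length in cattle was shorter than in goats in 22 of 42 members (52.4%), against 32.6% of all genes tested. It was shorter than in sheep in 12 members (28.6%), against 16.2%. The annotated exon length was shorter in cattle than in both other species in 10 of 42 members (23.8%), against 8.53% of all genes tested. It was under 50% of the goat length in 8 members (19.0%), against 7.01%. The median members had 3444.5 nt in goats, 2307 nt in cattle, and 2030.5 nt in sheep, where the medians of all genes tested were 2627, 3033, and 2191 nt. The number of exons was similar to that of all genes tested, with a median of 13 in cattle for both. When the rule was applied to CPM divided by exon length relative to the species median, 37 genes passed. Of these, 24 were among the 42 members. This scaling sets the median exon length of the 3 species equal, so it differs from the CPM per kb given for single genes. The members lost on plain CPM per kb were not counted. Of the 18 members that did not pass, genes 1, 2, 12, 17, 19, 25, 34, 35, 36, and 38 missed the ratio of 8, genes 20, 23, 26, 32, 39, and 42 missed the level of 5, and genes 33 and 37 missed both. Genes 3 to 11 and gene 18 were among the 24 that passed.

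The members were spread over 20 cattle chromosomes, with 5 on chromosome 5 and 4 on chromosome 19. The closest pair, genes 36 and 38, lay 0.370 Mb apart on chromosome 4. None of the 84 nearest tested genes, 1 on each side of each member, was itself a member. Of these neighbours, 24 (28.6%) had a mean at least 2-fold higher in sheep and goats than in cattle, against 23.9% of all genes tested, and 11 (13.1%) had one at least 2-fold lower, against 17.3%. All 84 neighbours lay on the same chromosome as their member in sheep and in goats. The members thus lay singly among genes whose ratios were spread much like those of all genes tested.

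The 24 neighbours at least 2-fold higher in sheep and goats belonged to many members, and genes 2, 12, 18, and 35 had 1 on each side. Those of genes 2, 4, and 28 are given as examples, chosen after their values were seen. Both neighbours of gene 2, 15.4 and 35.6 kb away, were abundant and higher in sheep and goats. One had a mean CPM of 696 in cattle, 4869 in sheep, and 2381 in goats, and the other had 1804, 11781, and 10218. The neighbour before gene 4 had 29.6 in cattle, 1120 in sheep, and 346 in goats. It was thus higher in sheep than in goats by mean CPM, the opposite order to gene 4. The neighbour before gene 28 had 297 in goats, 6.68 in sheep, and 0.743 in cattle, the same order as gene 28 itself. By contrast, the neighbours of gene 1 had 127 and 86.1 CPM in cattle, 141 and 40.2 in sheep, and 153 and 72.3 in goats, with no common direction.

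**Figure D4:**
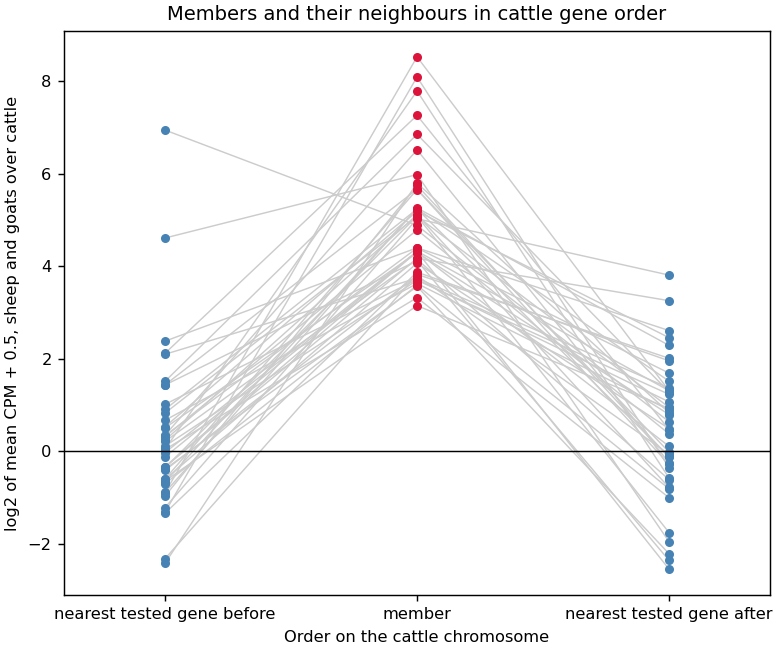
Log2 ratio of mean TMM CPM + 0.5 in sheep and goats over cattle (vertical axis) for the 42 members (red) and for the nearest tested gene before and after each in cattle gene order (blue), joined by a line for each member. The neighbours scatter around 0, with a median of 0.23, and the member of each trio is the highest except for gene 28, where the gene before it is higher.

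Reads of overlapping genes and of near copies could enter these counts, as the strand setting of the counting is not given in the sources used here. In all 3 species, 34 of the 42 members (81.0%) had no exon under another gene's exon, close to the 81.7% of all genes tested. The largest overlap, 40.8% of the exon length, was in gene 34 (chromosome 19, 23279266 to 23297617), which met genes of the other strand at 102 and 24.1 CPM in cattle and itself had 1.25, 0.848, and 0.805. Gene 14 (chromosome 27, 15073007 to 15119509) shared its span, though no exon, with an opposite-strand cattle gene at 1872, 1631, and 872 CPM. Its own values were 3.01, 4.05, and 3.51 in cattle, 57.2, 60.5, and 54.0 in sheep, and 44.2, 105, and 95.5 in goats. The part of such overlapping genes in the members' counts was not tested.

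Near copies were looked for as other genes that matched at least 70% of the internal exons of both models. Such a gene was found for 7 members in at least 1 species and for 3 members, genes 15, 29, and 37, in cattle. The cattle copy of gene 15 (chromosome 5, 54560835 to 54612806) lay on chromosome 22 and had 35.4, 60.7, and 41.0 CPM, whereas gene 15 itself had 1.34, 1.01, and 2. In sheep and goats gene 15 had 66.7, 52.6, and 45.0 and 30.8, 73.9, and 124 CPM. The cattle copies of genes 29 and 37 had mean levels of 0.12 and 0.0593 CPM, near the floor. The split of reads between gene 15 and its copy is uncertain. For gene 22, which had no near copy by this definition, 4 internal exons were matched in each species pair. All 4 lengths of its sheep model were also matched in order by another cattle gene, with a mean of 2.37 CPM. In goats another gene, with a mean of 40.5 CPM, matched 3 of the 4 (75%). Exon lengths alone thus did not single out the cattle model of gene 22.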

How the data were processed

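The authors trimmed the liver RNA reads with Trimmomatic 0.39, mapped them with STAR 2.7.6 to ARS-UCD1.2 (cattle), Oar_rambouillet_v1.0 (sheep), and ARS1 (goats), and counted them with featureCounts. The deposited values are raw counts per Ensembl gene, with exon positions. Strand, read-pair, and multi-mapping settings are not given in the sources used here.

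Genes were paired between species as reciprocal best matches of ordered internal-exon lengths, with at least 2 exons and 50% of the shorter list matched, a score at least 1.05 times the runner-up among 25 candidates, and at least 2 other pairs within 10 genes. This gave 8646 shared genes, of which 7657 had a CPM over 1 in at least 2 libraries. The pairing and the test were checked on simulated data. For the test, the simulated counts had a common spread for all genes and took the pairs as given. That check therefore does not cover genes of differing spread or wrong pairs. Counts were scaled by TMM and fitted with edgeR 4.0.16 in R 4.3.3 (quasi-likelihood, all 9 libraries, species as the only term). The SE is the absolute log2 fold change over the square root of F. The labels give no link between the same letter in different species, so the main fit had no replicate term (closing section).

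The members and gene lists were chosen with earlier results of these data known. Genes named are the first 12 members by mean CPM, any at 0 counts in cattle, and the 8 largest called sheep-goat differences. The 3 members nearest each threshold were named too, whereas the nearest 3 genes outside are given by value only. Other members were named after their values were seen. The lists of pathway and cell type genes set for the study were not used, because no identifier matched a symbol, and no result is given for them. Alternatives were DESeq2 1.42.0, other filters, thresholds and pairing rules, exon length, a replicate block, and each library left out. The other assays and species of the study were not analysed here.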

Additional observations from a re-analysis of the deposited data

How the results depend on the processing

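The number of members, 42, depended most on the thresholds, with 108 genes at a cattle ratio of 4, 20 at a ratio of 16, and 27 at a CPM of at least 10. It ranged from 42 to 60 with 1 library left out, 60 being the number without cattle A. Other scalings, filters, and pairing rules gave 37 to 46, other limits on exon overlap 34 and 45, and a CPM of at least 2 gave 53. Members that differed between sheep and goats numbered 10, with a range of 6 (without sheep C) to 10 when 1 library was left out, and the cause was not tested. They numbered 11 with DESeq2 and 12 with the offset of exon length, where genes 4, 11, and 18 lost the call and genes 3, 12, 30, 33, and 36 gained it. Over all genes tested, 1930 differed, with 1288 to 2266 when 1 library was left out. The same letter did not mark a shared source in the labels. Deviations of sheep and goats of the same letter correlated at 0.286, 0.279, and 0.0139 (A, B, and C), and 4 of 6 libraries correlated best with their own letter. With the replicate block, 10 members and 1849 genes were called. With the offset of exon length, genes 12 and 36 reversed to log2 fold changes of 1.96 and 1.81 (edgeR adjusted p = 0.000507 and 0.0330), where exon lengths differ most between sheep and goats. Of 630 refits of single members, 604 kept their side of the threshold, 16 lost the call, 8 gained it, and 2 reversed to a called difference. The 604 include refits that changed direction where neither fit was called. Gene 2, for example, went from a log2 fold change of -0.27 to 0.74 with the offset of exon length. The calls lost were those of genes 4, 11, 18, and 19. Depth limits the cattle values of members near 3 counts, for which no ratio is precise.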
